A study of Mus musculus with 7 samples.

Results

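The genes described here are the solute carrier genes of the mouse other than the Slc25 family, and the measurement is the H3K4me1 signal over each of them in single zygotes. Members were chosen by symbol: protein-coding RefSeq genes of GRCm38.p6 whose symbol begins with Slc, a family number, a letter and a member number, leaving out Slc25 and Slc38a4. The rule took 325 genes of the 21631 protein-coding genes on chromosomes 1 to 19 and X, in 49 families. Of these genes 316 were autosomal and 9 lay on X. The pattern also took 4 genes that are named after a carrier and do not encode one: Slc4a1ap, Slc7a6os, Slc9a3r1 and Slc9a3r2. They are counted with their families and in the lists below. There were 22 families with 5 or more members, holding 256 genes, and these were compared with each other, while 27 smaller families held the other 69.

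The study read 1 histone mark and the transcriptome of the same single zygote, with the mark read by CUT&Tag. In this method an antibody brings the Tn5 transposase to a histone mark, so that the sequenced fragments lie in marked chromatin. Of the 7 samples, the 2 used here are the batches of zygotes treated with an antibody to H3K4me1, which carry no further treatment in the labels, and each batch held the zygotes of 1 mouse. The females had received 5 IU PMSG and then 5 IU hCG 46 to 48 h later, and zygotes were taken at 23 post-hCG (no unit given) without cumulus cells and zona pellucida. The strains are named in the labels for another antibody's samples and not for these, so they are not given here. H3K27me3 and transcriptome samples were not used here.

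Both batches are in 1 fragment table. The name of a zygote's library holds the number 4 or 5, and no label ties either number to a batch, so the table was treated as 1 sample with no replicates, no SD and no p-value. Of 16 libraries, 14 were kept, those with 5000 or more fragments on the nuclear chromosomes, which is the single measured value that the choice used. The 2 libraries left out held 68 and 672 fragments, and the smallest kept, 5-11, held 7106. The others reached up to 197312 with a median over the 14 of 96240, for 1404305 fragments in all. The level of a gene is the number of fragments per base over the gene and 2.5 kb on each side, divided by the mean per base of the autosomes (5.62 fragments per 10 kb), so that 1 is the autosomal mean. Intervals are exact 95% Poisson intervals and cover counting error only, since fragments carry no molecular identifiers. A gene is called above or below where its interval lies wholly above or below 1.

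Solute carriers are membrane proteins that move ions, sugars, amino acids, nucleotides, vitamins and drugs across the cell membrane or the membranes of organelles. The number in the symbol groups them by sequence into families, which largely share a kind of substrate. Eggs and early embryos use several of them for a defined purpose: glycine and betaine carriers set cell volume, monocarboxylate carriers bring in pyruvate and lactate as fuel, glucose carriers take over later, and ion exchangers set internal pH. H3K4me1 is the monomethylated form of lysine 4 on histone H3, best known from enhancers and from the flanks of active promoters in differentiated cells. It does not by itself report transcription, and the values below are levels of the mark, not of RNA.

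To show what the sequence at the start of these genes looks like, the RefSeq promoter window (GRCm38.p6, 250 bases before to 50 after the start) is printed for the 3 highest and 3 lowest members that have a single such window at the gene's end and no long stretch without fragments, on the chromosomes from which sequence is shown. They are Slc12a4 (chr8:105966066-105966365, minus strand), Slc7a10 (chr7:35186135-35186434, plus strand) and Slc36a3 (chr11:55151659-55151958, minus strand) among the high genes. The low genes are Slc5a7 (chr17:54298985-54299284, minus strand), Slc15a2 (chr16:36784913-36785212, minus strand) and Slc6a14 (chrX:21714650-21714949, plus strand). Sequences run 5′ to 3′ along the gene, and capitals mark every CG dinucleotide.
Slc12a4: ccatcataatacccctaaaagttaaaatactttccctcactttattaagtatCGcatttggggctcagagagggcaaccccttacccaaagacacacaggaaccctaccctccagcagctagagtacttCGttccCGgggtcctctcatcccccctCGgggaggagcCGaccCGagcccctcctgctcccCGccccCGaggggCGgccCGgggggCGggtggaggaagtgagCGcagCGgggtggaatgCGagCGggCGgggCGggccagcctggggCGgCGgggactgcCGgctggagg
Slc7a10: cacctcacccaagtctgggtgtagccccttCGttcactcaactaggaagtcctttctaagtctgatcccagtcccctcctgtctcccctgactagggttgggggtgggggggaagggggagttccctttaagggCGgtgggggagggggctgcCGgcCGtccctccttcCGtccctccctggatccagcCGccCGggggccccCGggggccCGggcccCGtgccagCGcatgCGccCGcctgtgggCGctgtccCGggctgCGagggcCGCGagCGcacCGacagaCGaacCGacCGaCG
Slc36a3: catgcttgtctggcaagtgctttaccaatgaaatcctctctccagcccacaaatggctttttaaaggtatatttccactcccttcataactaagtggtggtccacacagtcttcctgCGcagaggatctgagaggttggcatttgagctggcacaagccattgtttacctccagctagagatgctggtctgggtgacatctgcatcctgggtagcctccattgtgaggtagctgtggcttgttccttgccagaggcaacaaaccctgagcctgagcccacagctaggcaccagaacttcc
Slc5a7: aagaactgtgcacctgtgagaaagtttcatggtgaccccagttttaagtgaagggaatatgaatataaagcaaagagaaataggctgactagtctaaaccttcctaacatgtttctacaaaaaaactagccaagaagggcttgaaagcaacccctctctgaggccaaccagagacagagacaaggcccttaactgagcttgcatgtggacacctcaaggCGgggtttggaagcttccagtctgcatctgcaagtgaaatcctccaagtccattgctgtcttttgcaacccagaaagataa
Slc15a2: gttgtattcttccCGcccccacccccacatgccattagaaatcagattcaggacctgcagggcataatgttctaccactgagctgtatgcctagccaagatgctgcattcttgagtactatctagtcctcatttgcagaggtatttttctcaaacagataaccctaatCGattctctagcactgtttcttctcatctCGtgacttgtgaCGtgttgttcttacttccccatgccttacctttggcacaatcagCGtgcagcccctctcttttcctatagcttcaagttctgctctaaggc
Slc6a14: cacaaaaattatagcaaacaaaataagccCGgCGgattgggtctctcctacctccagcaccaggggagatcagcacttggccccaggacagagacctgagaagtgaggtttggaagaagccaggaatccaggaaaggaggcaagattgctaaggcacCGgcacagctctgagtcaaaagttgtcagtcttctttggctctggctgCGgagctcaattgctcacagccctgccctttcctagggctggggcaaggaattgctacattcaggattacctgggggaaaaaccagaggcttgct
The motif searched was CG, which reads the same on both strands. Slc12a4 holds 20 and Slc7a10 holds 24, and 26.5% and 19.98% of all 32851 RefSeq promoter windows of this length hold as many or more. The windows of Slc36a3 and Slc5a7 hold 1 each, that of Slc6a14 4 and that of Slc15a2 5, and 43.6% of all windows hold 0 to 5. A high gene and a low gene thus both have a window with 1 CG. In the 2 kb centred on these windows, Slc36a3 had 5 fragments (level 4.45), Slc7a10 3, Slc15a2 and Slc6a14 1 each, and Slc12a4 and Slc5a7 0. Taking 3 fragments as the limit that a count of 0 allows, which is not the two-sided interval used elsewhere, their level there was at most 2.67. Slc12a4, whose gene level was among the highest, thus had none of its fragments in the 2 kb centred on its window. Slightly farther out it did: the whole 2 kb before its start held 5 fragments and the 2 kb after it 3.

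Across the 325 genes the mark was spread widely and lay somewhat higher than over protein-coding genes in general. The median level was 1.37 (quartiles 0.962 and 1.83), beside 1.19 (0.805 and 1.64) over all 21631 genes, and 199 members (61.2%) lay over the all-gene median. No member was without a fragment. By interval 126 members (38.8%) were above 1, beside a background of 28.4% of all protein-coding genes, and 21 (6.46%) were below 1, beside a background of 8.17%. The other 178 could not be placed on either side at this depth, where the expected number of fragments per member ran from 3.91 to 318 with a median of 19.7. Summed over the members the level was 1.27 (1.25 to 1.29, 13381 fragments), against 1.15 over all protein-coding genes.

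The split depends on the level taken as 1. With the summed level of all protein-coding genes set to 1, 101 members were above and 39 below (19.9% and 13.7% of all genes), so that 72.1% of the calls were upward in place of 85.7%. With their median level set to 1, 90 were above and 47 below (17.9% and 15.1% of all genes), or 65.7% upward. On these 3 scales the members' share above 1 was larger than that of all genes.

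The share of genes called above rises with length, and members were longer than other genes, with a median length of 30013 bases against 17329. Within classes of length the members' median was higher up to 80 kb and not beyond. Members under 10 kb had a median of 1.48 (47 genes, all genes 1.10) and 25.5% were above 1 (background 16.2%) and 0 below (3.81%). Members of 10 to 20 kb had a median of 1.64 (56 genes, all genes 1.34) and 41.1% were above (background 31.2%) and 1 gene below (6.62%). The 96 members of 20 to 40 kb had a median of 1.41 against 1.26, with 42.7% above (background 33.6%) and 6 genes below (8.05%). The 80 of 40 to 80 kb had 1.24 against 1.21, with 41.3% above (background 37.9%) and 6 below (9.95%). In the 46 longest members, of 80 kb or more, the median was 1.06 against 1.12, with 37.0% above and 17.4% below (background 39.9% and 19.4%). The long members include Slc8a1, the cardiac sodium-calcium exchanger, at 0.726 (0.614 to 0.851), and Slc24a3, a sodium-calcium-potassium exchanger, at 1.30 (1.16 to 1.44). At the all-gene share of each length class 106 members would be above and 30.1 below, where 126 and 21 were counted.

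Members in gene-rich stretches carried more of the mark. The 72 autosomal members with at most 7 other protein-coding genes within 500 kb had a median of 0.967 (all such genes 1.02). The median rose to 1.28 in the 68 with 8 to 12 neighbours (all genes 1.15), 1.56 in the 67 with 13 to 19 (1.30), 1.65 in the 55 with 20 to 32 (1.39) and 1.63 in the 54 with 33 to 71 (1.42). Spearman's rho of level and neighbours was 0.358 over 316 members and 0.226 over 20665 genes. With length it was −0.232 in members and 0.0689 in all genes, and with the surrounding sequence from 2.5 to 100 kb on either side 0.586 and 0.625. These are descriptions over genes that share libraries and depth, and 173 members share bases of their window with another protein-coding gene. Relative to that surrounding sequence members stood at a median ratio of 1.06 (all genes 1.02), and 190 of them (58.5%) lay above it, beside a background of 51.8%. Of the 316 autosomal members 125 (39.6%) were above 1, beside a background of 29.5% of autosomal genes. The 9 members on X had a median of 1.24, where the median over all X genes was 0.683.

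All but 1 library showed the members above protein-coding genes in general, as the plot of both summed levels by library shows. In libraries 5-1, 5-3, 5-5 and 5-11, however, the members' interval included the all-gene level. The ratio of the members' summed level to that of all genes was 0.995 in library 5-11, the smallest, and reached 1.16, with a median of 1.10 over the 14. The members' order was shared in part by the libraries named 4 and those named 5: over the 158 members with 20 or more expected fragments, Spearman's rho between the sets was 0.569. Those sets differ in number, 3 libraries and 11, and whether they are the 2 batches cannot be told. In 7 members (2.15%) the intervals of the sets did not overlap, beside a background of 2.21% of all protein-coding genes. The widest gap was at Slc5a6, the sodium-dependent multivitamin transporter, at 7.81 (14 fragments) in the libraries named 4 and 0.968 (8 fragments) in those named 5. Slc4a9 (5.11 against 1.4996), Slc35d1 (3.17 against 1.07), Slc30a6 (3.26 against 0.965) and Slc35a5 (2.90 against 0.359) were also higher in the libraries named 4, and Slc24a3 (0.895 against 1.38) and Slc35f3 (0.494 against 1.34) were lower there.

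**Figure D1:**
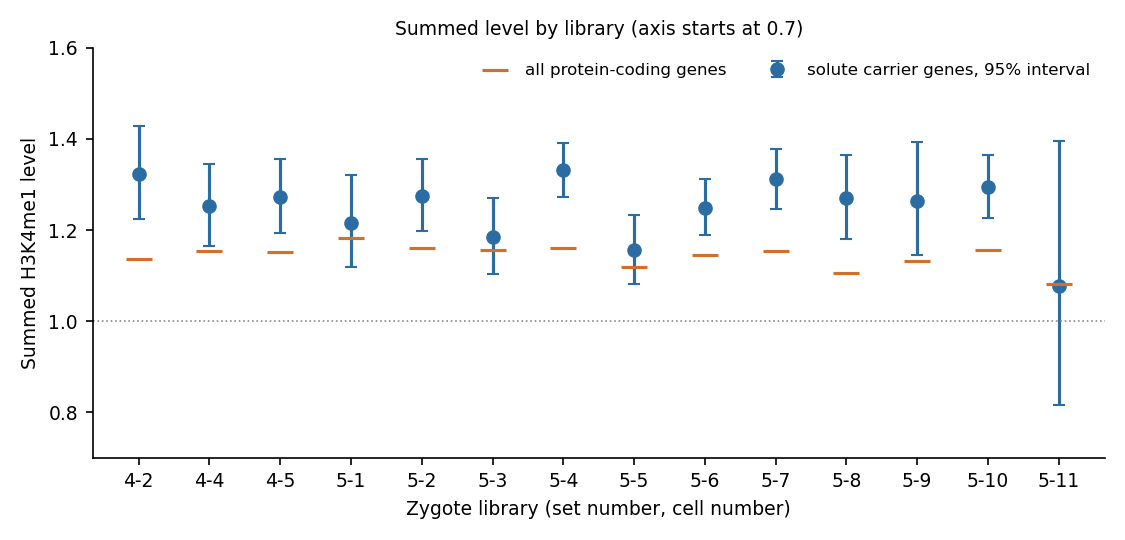
Summed H3K4me1 level (fragments per base over the autosomal mean, y axis starting at 0.7) in each of the 14 zygote libraries on the x axis, for the solute carrier genes (points, 95% Poisson interval) and all protein-coding genes (dashes). The points lie above the dashes in 13 libraries and level with the dash in library 5-11, which holds 7106 fragments. The intervals include the dash in libraries 5-1, 5-3, 5-5 and 5-11.

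Against the all-gene level of 1.15, 10 of the 22 larger families had an interval wholly above, 3 wholly below and 9 neither. The highest was Slc6, the sodium- and chloride-dependent carriers of neurotransmitters and amino acids, with a summed level of 1.66 (1.55 to 1.78, 856 fragments) over 21 members. It was followed by Slc12, the cation-chloride cotransporters (1.496, 1.37 to 1.63), Slc13, the sodium-sulfate and sodium-carboxylate cotransporters (1.48, 1.29 to 1.69), and Slc38, the sodium-coupled neutral amino acid carriers (1.47, 1.33 to 1.63). Of the fragments of Slc13, 37.0% came from Slc13a3, and without that gene the family stood at 1.29. The lowest were Slc15, the proton-coupled oligopeptide carriers (0.896, 0.748 to 1.07), Slc17, the vesicular glutamate and organic anion carriers (0.938, 0.799 to 1.09), and Slc16, the monocarboxylate carriers (1.01, 0.913 to 1.11). The interval of Slc6 lay wholly above those of all 3. By the median over members, 1.47, Slc6 ranked 6 among the 22 families. In the 13 libraries with 20000 or more fragments, Slc6 was above Slc16, above Slc15 and above Slc35 in 13 each and above Slc17 in 12, and Slc12 was above Slc16 in 13.

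The other high families were Slc5, sodium-coupled carriers of glucose and other solutes (1.42, 1.29 to 1.56), Slc1, glutamate and neutral amino acid carriers (1.41, 1.26 to 1.56), Slc7, cationic and large neutral amino acid carriers (1.39, 1.29 to 1.51), and Slc2, the facilitative glucose carriers (1.35, 1.24 to 1.46). Slc24, the potassium-dependent sodium-calcium exchangers, stood at 1.35 (1.25 to 1.45) in the pool, but at 0.983 (0.792 to 1.21) in the libraries named 4 and 1.43 (1.32 to 1.54) in those named 5, and a single gene, Slc24a3, gave 49.3% of its fragments. Slc39, the zinc importers, was called above at 1.25 (1.15 to 1.35), with 324 of its 648 fragments from Slc39a11 and 1.12 without that gene. The call of Slc39 ended when any of libraries 4-4, 5-2, 5-4, 5-6, 5-7 or 5-8 was left out, with levels of 1.21 to 1.25. The families on neither side ranged from Slc10, the sodium-bile acid cotransporters (1.26), to Slc26, anion exchangers (1.04). Between them were Slc27, fatty acid carriers (1.21), Slc22, organic ion carriers (1.19), Slc30, zinc exporters (1.19), Slc4, bicarbonate carriers (1.14), Slc35, nucleotide sugar carriers (1.13), Slc9, sodium-proton exchangers (1.10), and Slc44, choline carriers (1.10).

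In this order each family's interval overlapped that of the next family down, and differences between neighbouring families were not tested. Across the 22 families, Spearman's rho of summed level was 0.0912 with the median number of neighbours and 0.177 with median length. It was −0.0113 with the median count of CG in the promoter window. These are descriptions over few families, and summed levels weight long genes where the medians do not. Among the 27 smaller families, those just under the limit of 5 included Slc29, the equilibrative nucleoside carriers (4 members, 2.35, 1.99 to 2.75), Slc45, sugar carriers (4 members, 2.03, 1.74 to 2.35), and Slc8, the sodium-calcium exchangers (4 members, 1.07, 0.963 to 1.19).

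**Figure D2:**
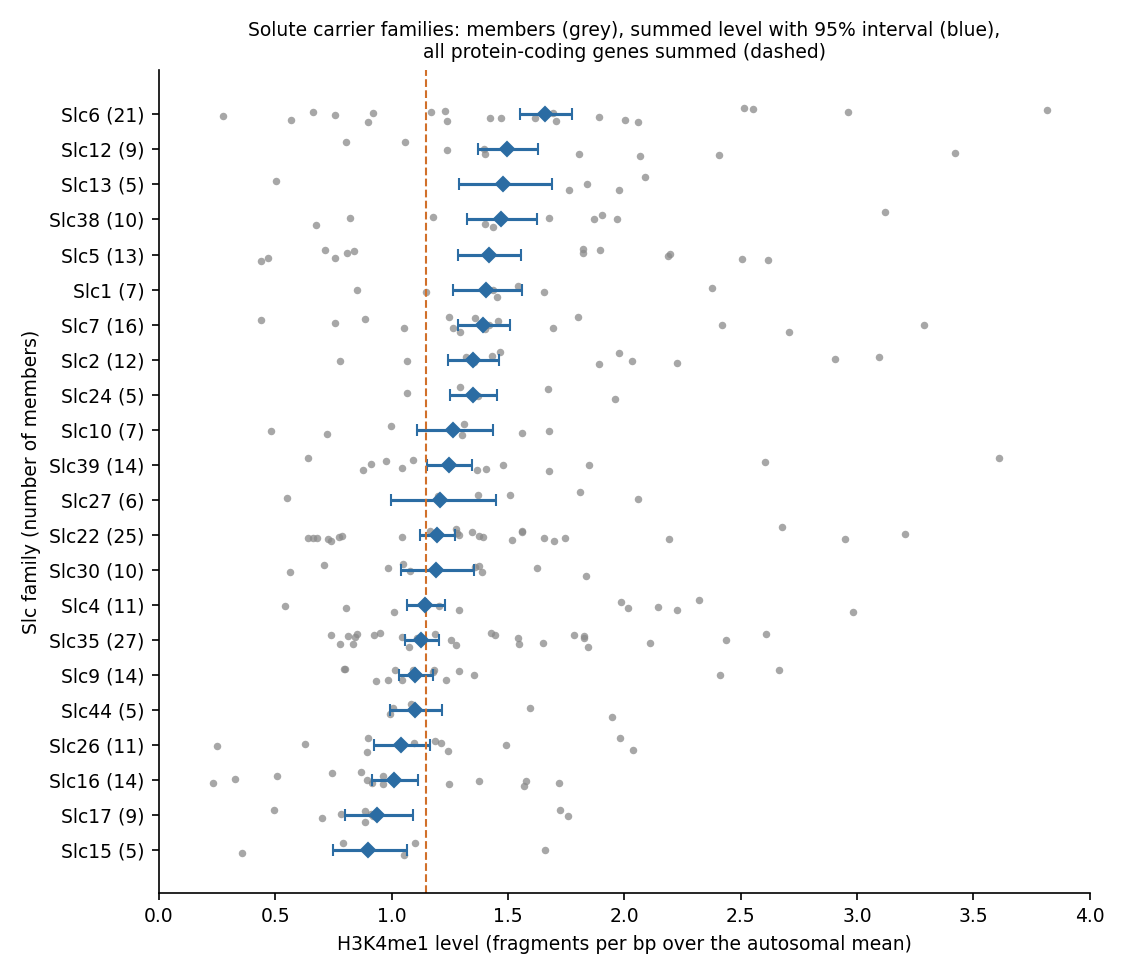
H3K4me1 level on the x axis for each member (grey points) and summed over each Slc family with 5 or more members (blue diamonds, 95% Poisson interval), with the families and their number of members on the y axis. The dashed line is the summed level of all protein-coding genes, 1.15: intervals lie above it from Slc6 (1.66) to Slc24 (1.35) and at Slc39 (1.25), and below it at Slc16, Slc17 and Slc15.

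Within families the members covered a wide range. In Slc6, 10 of 21 members (47.6%) were above 1 and 2 below, beside a background of 28.4% and 8.17% of all protein-coding genes. The vesicular amino acid carrier Slc6a17 led at 3.82 (3.16 to 4.57), and the neuronal proline carrier Slc6a7 (2.96, 2.11 to 4.03), the glycine carrier Slc6a9 (2.55, 1.93 to 3.31), the GABA carriers Slc6a13 (2.52, 1.92 to 3.24) and Slc6a11 (2.06, 1.73 to 2.42) and the taurine carrier Slc6a6 (2.00, 1.61 to 2.46) followed. The noradrenaline carrier Slc6a2 stood at 1.62 (1.17 to 2.19), the serotonin carrier Slc6a4 at 1.47 (1.01 to 2.07) and the dopamine carrier Slc6a3 at 0.898 (0.575 to 1.34). The members below 1 were Slc6a16 (0.568, 0.293 to 0.992) and Slc6a14, a carrier of neutral and cationic amino acids on X, at 0.274 (0.0890 to 0.640). The call of Slc6a16 ended without any 1 of 9 libraries (4-2, 5-1, 5-2, 5-3, 5-4, 5-5, 5-6, 5-9 or 5-10), with levels up to 0.614. That of Slc6a4 ended without any 1 of 7 (4-4, 4-5, 5-1, 5-4, 5-5, 5-6 or 5-7), with levels of 1.36 to 1.44.

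In Slc4, whose 11 members include Slc4a1ap, which does not encode a carrier, 6 (54.5%) were above 1 and 1 below. The background was 28.4% above and 8.17% below over all protein-coding genes. Band 3 of red cells, Slc4a1, stood at 2.98 (2.09 to 4.13), and Slc4a11, Slc4a3, Slc4a9, Slc4a5 and Slc4a8 lay between 1.99 and 2.32, all called above. The long bicarbonate carrier Slc4a10 was at 0.543 (0.435 to 0.669, 87 fragments) and Slc4a4, which gave 34.3% of the family's fragments, at 1.01 (0.890 to 1.14). The median over the 11 members was thus 1.99, the highest median of the 22 families, while the summed level was 1.14. In Slc13, the sulfate carrier of the kidney, Slc13a1, was at 0.503 (0.322 to 0.749), and the other 4 members lay between 1.76 and 2.09.

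Of the 25 members of Slc22, 9 were above 1 and 4 below, beside 28.4% and 8.17% of all protein-coding genes. The members named here do not cover the family, and most were picked as examples after their values were seen. On chromosome 19 the members Slc22a19, Slc22a26, Slc22a27, Slc22a28, Slc22a29 and Slc22a30 lay between 0.640 and 0.786, with Slc22a27, Slc22a28 and Slc22a29 called below. Those calls ended without library 5-7 (0.748) at Slc22a27, without 5-6 (0.728) at Slc22a28 and without any 1 of 7 libraries (4-5, 5-1, 5-4, 5-5, 5-6, 5-7 or 5-9) at Slc22a29, with levels up to 0.782. These genes are close copies of one another, and how reads that match several copies were placed is not given in the sources used here, so their levels are uncertain. On the same chromosome the renal urate carrier Slc22a12 was at 3.20 (2.01 to 4.85). On chromosome 17 the organic cation carriers Slc22a2 and Slc22a3, which are neighbours, stood at 1.70 (1.25 to 2.26) and 1.75 (1.41 to 2.14). The sodium-phosphate carriers of chromosome 13, Slc17a1 to Slc17a4, lay at 0.494 to 0.918. Of these only Slc17a3 was called below, on 8 fragments, and that call ended when single libraries were left out. The intervals of the others include 1. The vesicular glutamate carrier Slc17a7 was at 1.76 (1.02 to 2.81) and the vesicular nucleotide carrier Slc17a9 at 1.72 (1.08 to 2.61).

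The ends of the other extreme families were as follows. In Slc12 the high end was Slc12a4 at 3.42, and in Slc38 the range ran from Slc38a3 at 3.12 to Slc38a11 at 0.675 (0.418 to 1.03). In Slc13 the high end was Slc13a4 at 2.09 (1.56 to 2.73). In the low families it was Slc26a11 at 2.04 (1.42 to 2.83) for Slc26, Slc16a1 at 1.58 for Slc16 among genes with 10 or more expected fragments, and Slc15a3 at 1.66 (0.999 to 2.59) for Slc15. At Slc15a3, a lysosomal carrier, 42.1% of 19 fragments came from 1 library and 5 of that library lay over a single base, and the level was 1.04 without that library. The call of Slc17a9 ended without any of libraries 4-2, 5-5 or 5-7, with a lowest level of 1.499, and that of Slc17a7 without any 1 of libraries 4-5, 5-4, 5-7, 5-9, 5-10 or 5-11, with a lowest of 1.599.

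Grouped by the substrate typical of their family, the lists of vitamin, nucleoside and sugar carriers had the highest medians. The lists of monocarboxylate and phosphate carriers had the lowest. Several lists take whole families, so they can hold members that carry another substrate. Over all protein-coding genes 28.4% were above 1 and 8.17% below. With 1 library left out, 4 to 7 vitamin, 4 to 6 nucleoside and 9 to 11 sugar carriers were above. Of 11 genes listed as vitamin carriers 6 were above 1 and 0 below (median 1.90). All 4 members of Slc23 were above, at 1.46 to 2.10, and were listed as the ascorbate family whether or not each carries ascorbate. The folate carrier Slc19a1 was at 1.92 (1.24 to 2.83). The other was Slc5a6, at 7.81 in the libraries named 4 and 0.968 in those named 5. Its call ended without library 4-4 (1.58) or 4-5 (1.61). Of 8 nucleoside carriers 5 were above and 0 below (median 1.65), led by Slc29a4 at 2.64 (1.97 to 3.47). Of 18 sugar carriers 11 were above and 0 below (median 1.64). In Slc2 these were 8 of 12, among them the insulin-responsive glucose carrier Slc2a4 at 3.09 (1.86 to 4.83) and Slc2a6 at 2.90 (1.75 to 4.54). The sugar cotransporters Slc5a10, Slc5a9 and Slc5a1 stood at 2.62, 2.19 and 1.82, all above, while Slc5a4a and Slc5a4b were at 0.836 and 0.713 with intervals that reach 1.

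Carriers that take up or store neurotransmitters, genes whose best known sites are neurons and glia, were above 1 in 12 of 20 and below in 0 (median 1.49). Leaving out 1 library gave 9 to 12 above and 0 to 1 below. Over all protein-coding genes 28.4% were above and 8.17% below. The vesicular GABA carrier Slc32a1 was at 2.24 (1.31 to 3.59), the glial glutamate carrier Slc1a2 at 1.44 (1.18 to 1.73) and the vesicular monoamine carrier Slc18a2 at 1.51 (1.04 to 2.11). Slc32a1 had 0 fragments in the libraries named 4 and 17 in those named 5, and its call ended without library 5-3 (1.83). The call of Slc18a2 ended without library 5-7 or 5-8 (1.297 and 1.41). Of 49 genes listed as amino acid carriers of the cell membrane, among them the non-carrier Slc7a6os, 20 were above and 3 below (median 1.42). Of 18 cation-chloride and sodium-calcium carriers 10 were above and 1 below (median 1.40), the latter being Slc8a1. Iron and other metal carriers (6 genes, 2 above, 1 below, median 1.44) included Slc41a1, a magnesium carrier, at 2.55 (1.79 to 3.51) and ferroportin, Slc40a1, at 0.455 (0.167 to 0.9903).

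Organic cation, anion and drug carriers were above in 10 of 27 and below in 4 (median 1.38), bile acid and fatty acid carriers above in 4 of 13 and below in 1 (median 1.31), and zinc carriers above in 5 of 24 and below in 0 (median 1.30). Nucleotide sugar carriers were above in 10 of 27 and below in 1 (median 1.26), and exchangers of bicarbonate, protons and anions above in 11 of 36 and below in 3 (median 1.19). The 36 include Slc4a1ap, Slc9a3r1 and Slc9a3r2, which do not encode carriers. Of 9 phosphate carriers 2 were above and 1 below (median 0.997). The monocarboxylate list is all 14 members of Slc16: 1, Slc16a10, was above and 1, the creatine carrier Slc16a12, below (median 0.937). Its median thus does not stand for monocarboxylate carriers alone. Of those that supply pyruvate and lactate, Slc16a3 was at 1.72, Slc16a1 at 1.58 and Slc16a7 at 0.913. Lists overlap, and over all protein-coding genes 28.4% were above and 8.17% below with a median of 1.19.

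The 22 carriers described in eggs and early embryos had a median of 1.47, with 10 (45.5%) above 1 and 1 below, where 28.4% of all protein-coding genes were above and 8.17% below. The highest was Slc38a3, a glutamine carrier (chr9:107651154-107668968). In the 13 libraries with 20000 or more fragments its lowest count was 0, its median 3 and its highest 7 fragments, and it was above 1 in 11 of them. Its pooled level was 3.12 (2.23 to 4.25, 40 fragments). The large neutral amino acid carrier Slc7a5 (chr8:121881146-121907686) had 0 to 10 fragments per library with a median of 3 and a level of 2.71 (2.00 to 3.59). Its partner subunit Slc3a2 was at 1.82 (1.14 to 2.76, 22 fragments), a call that ended without library 4-2 (1.56).

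The single carrier of this list above 1 in every large library was Slc6a9, which carries the glycine that sets cell volume in early cleavage (chr4:117835258-117869305). It had 1 to 10 fragments in every one of the 13 libraries, with a median of 4, and its level was above 1 in all 13 (lowest 1.23, median 2.95, highest 4.56). The pooled level was 2.55 (1.93 to 3.31, 56 fragments), 2.81 in the libraries named 4 and 2.495 in those named 5. The taurine carrier Slc6a6 (chr6:91684048-91759063) was at 2.00 (1.61 to 2.46), but its surroundings stood higher, at 2.39. The betaine and proline carrier Slc6a20a, which shares the volume role of Slc6a9 and belongs to the same family, was at 0.758 (0.463 to 1.17), wholly under the interval of Slc6a9.

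Among the glucose carriers of embryos Slc2a1 (chr4:119108745-119137330) had 1 to 10 fragments per library, with a median of 2, and a level of 2.22 (1.603 to 3.01) where the surrounding sequence was at 0.995. Slc2a8 was at 1.89 (1.06 to 3.12, 15 fragments) and Slc2a3 at 1.32 (1.00 to 1.70). The call of Slc2a8 ended without any of libraries 5-4, 5-5, 5-6 or 5-7 (1.58 to 1.77), and Slc2a8 lay at 0.708 in the libraries named 4. The call of Slc2a3 ended without any of 7 libraries, with a lowest value of 1.12 without library 5-4. The monocarboxylate carriers that supply pyruvate and lactate were not above 1 by interval: Slc16a3 stood at 1.72 (0.963 to 2.84), Slc16a1 at 1.58 (0.989 to 2.39) and Slc16a7 at 0.913 (0.734 to 1.12). The intervals of Slc16a3 and Slc16a1 lay above 1 without any 1 of 7 and of 6 libraries. At Slc16a1, 6 fragments of 1 library lay over a single base, so the counting interval understates its error.

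The cationic amino acid carrier Slc7a1 was above at 1.40 (1.07 to 1.799), a call that ended without library 5-6 (1.25). Slc1a5, Slc9a3, Slc4a2, Slc1a1, Slc7a6 and the zinc importers Slc39a6 and Slc39a10 lay between 0.910 and 1.54 with intervals that include 1. Of Slc4a2, an anion exchanger, 53.3% of the 15 fragments came from library 5-4, and without it the level was 0.652 in place of 1.20. The only carrier of the list called below was Slc7a11, the cystine-glutamate exchanger (chr3:50364936-50499087), at 0.754 (0.574 to 0.973, 59 fragments), with 0 to 9 fragments per library. That call ended without any of libraries 4-4, 5-3, 5-4, 5-5 or 5-9 (0.778 to 0.802).

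**Figure D3:**
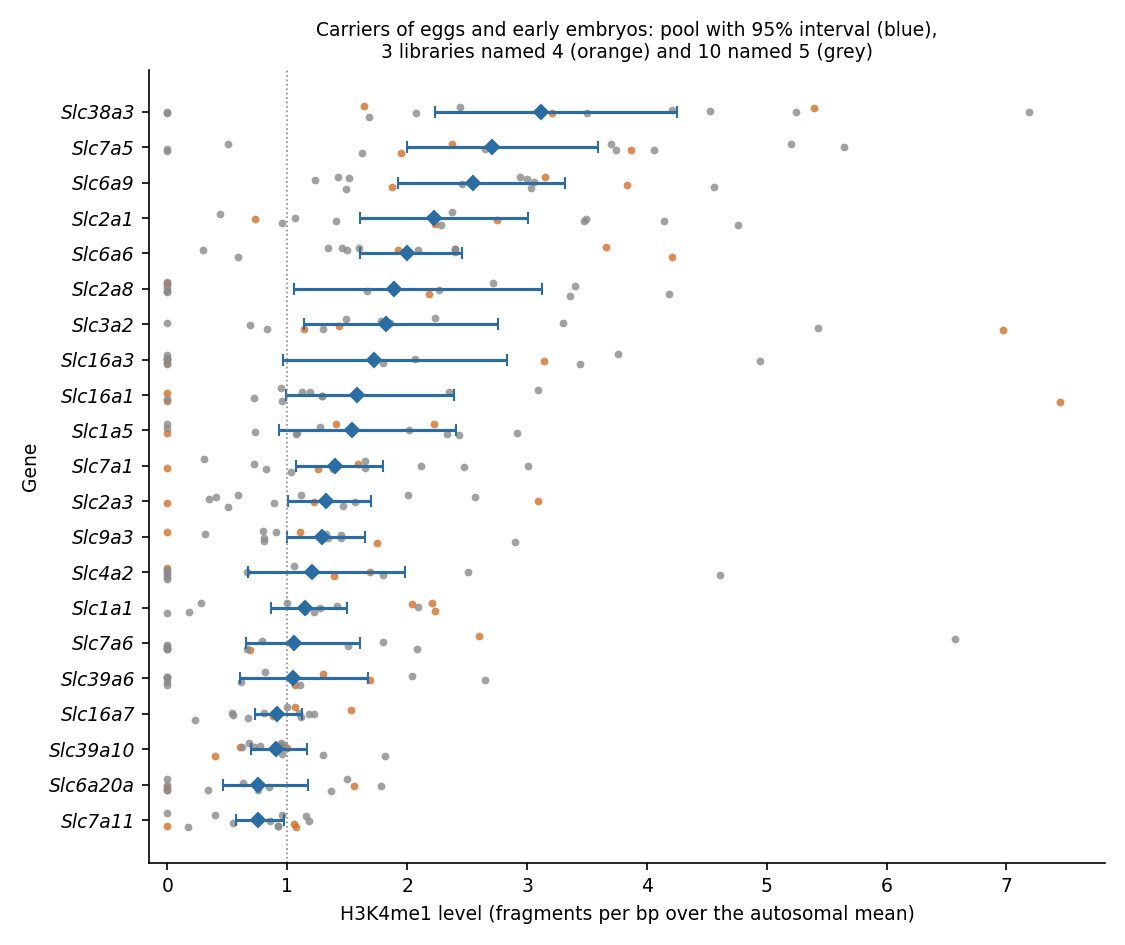
H3K4me1 level on the x axis for 21 of the 22 carriers described in eggs and early embryos, in the pool (blue, 95% Poisson interval), in the 3 libraries named 4 (orange) and in the 10 libraries named 5 with 20000 or more fragments (grey). The order runs from Slc38a3 (3.12) to Slc7a11 (0.754), and the points of Slc6a9 lie above 1 in all 13 libraries.

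The 2 highest members with 10 or more expected fragments owed part of their level to a narrow stretch. Slc45a1, a proton-coupled sugar carrier (chr4:150629396-150652176), had 1, 4 and 11 fragments as the lowest, median and highest of the 13 libraries and was above 1 in all 13, with a pooled level of 3.91 (2.99 to 5.02, 61 fragments). Of these, 22 fragments from 10 libraries lay in 2 kb (chr4:150643496-150645495), 14.1 kb from the lower end of the gene, at 19.6 times the autosomal mean. Without that stretch the level was 2.69. Slc6a17 (chr3:107467548-107518018) had 0, 8 and 20 fragments as lowest, median and highest and was above 1 in 12 of 13 libraries, with a pooled level of 3.82 (119 fragments). Its highest 2 kb (chr3:107478348-107480347), 37.7 kb inside the gene from its start, held 32 fragments from 9 libraries, at 28.5 times the mean, and the level without it was 2.89. Both stretches lie within the gene bounds, whose exons the table used here does not give. The third member with 2 kb at 10 times the mean or more was Slc1a6, a glutamate carrier (12 fragments from 8 libraries, 10.7 times), where the level was 1.66 with this stretch and 1.18 without it, and where the call also ended without library 5-5 (1.45). These 3 make up 0.923% of members, beside a background of 1.13%.

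In fixed 10 kb bins the same genes led. Bins at 3 times the mean or more, with 20 or more fragments from 5 or more libraries, overlapped 19 members (5.85%), beside a background of 3.77%. The highest 5 were in Slc6a17 (9.07 times, 51 fragments from 12 libraries), Slc45a1 (6.23 times, 35 from 11), Slc12a4 (4.45 times, 25 from 9), Slc22a12 (4.45 times, 25 from 11) and Slc7a10 (4.27 times, 24 from 11). None of the 22 bins that overlapped a member reached 10 times the mean.

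Of the 10 highest members, only Slc45a1 and Slc6a17 held 2 kb at 10 times the mean or more. The potassium-chloride cotransporter Slc12a4 (chr8:105943590-105966149) had 0 to 12 fragments per library, with a median of 3, and a level of 3.42 (2.56 to 4.48, 53 fragments), and without its highest 2 kb it was still at 2.92. It was above 1 in 12 of 13 libraries. The small neutral amino acid carrier Slc7a10 (chr7:35186095-35201116) was at 3.29 (2.31 to 4.53, 37 fragments) with 1 to 6 fragments per library, and at 2.96 without its highest 2 kb. Slc4a1 (2.98, above 1 in 13 of 13 libraries), Slc6a7 (2.96), the mitochondrial sodium-calcium exchanger Slc8b1 (2.94, 2.15 to 3.92), Slc7a5 and Slc38a3 were also among the 10 highest. Slc8b1 was at 5.73 in the libraries named 4 and 2.33 in those named 5. The surroundings of the 10 highest genes were themselves at 1.51 to 2.26, all over the autosomal mean.

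**Figure D4:**
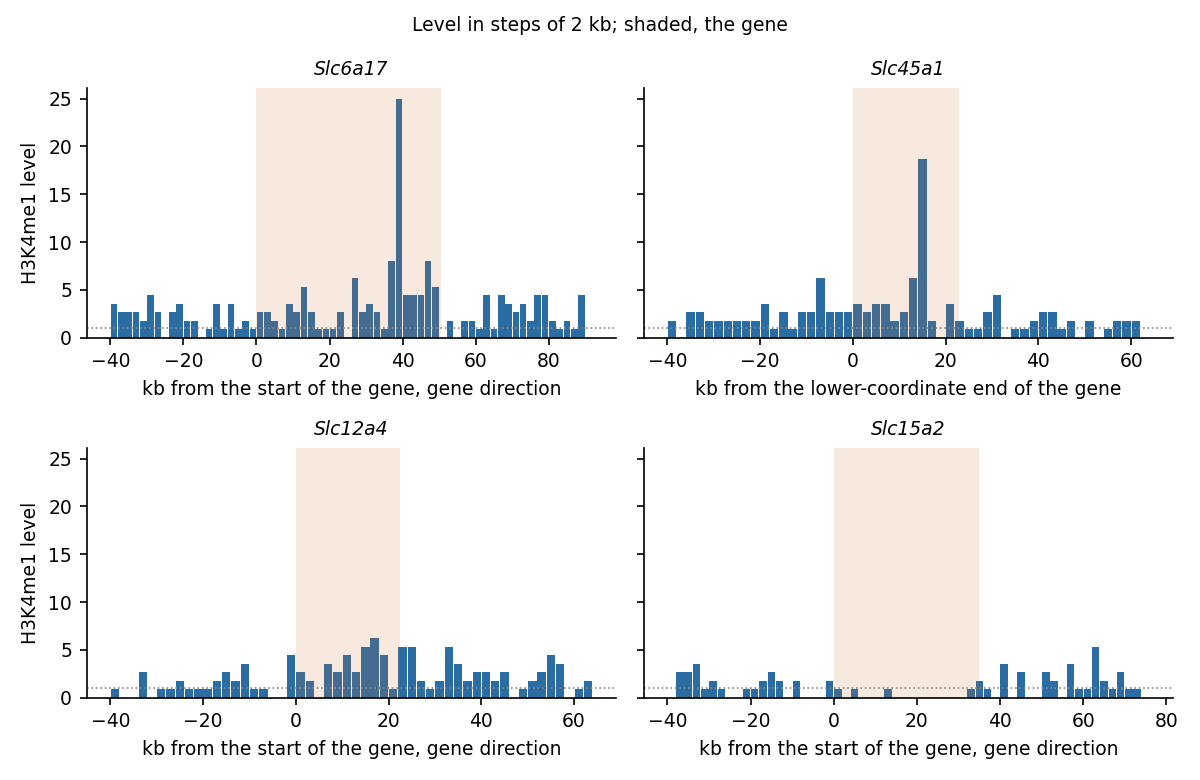
H3K4me1 level in steps of 2 kb (y axis, same scale in all panels) against distance in kb from the gene's start, or from its lower end for Slc45a1, with the gene shaded and the autosomal mean dotted. Slc6a17 and Slc45a1 show 1 narrow peak, Slc12a4 a broad rise over the gene, and Slc15a2 almost no fragment inside the gene.

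The lowest members were not all alike either. The lowest by level with 10 or more expected fragments was Slc26a6, an anion exchanger (chr9:108854043-108913049), at 0.250 (0.114 to 0.475, 9 fragments). Of its window 54604 bases (chr9:108858744-108913347) held no fragment of any library where 30.7 were expected, and on the remaining bases the level was 1.70. Whether reads can be placed in that stretch was not tested, so the low level of Slc26a6 is uncertain. No other member held an empty stretch of 50 kb or more.

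Slc6a14 (chrX:21714900-21742358) had 5 fragments where 18.2 were expected, 0 to 2 per library, and was above 1 in 0 of 13 libraries. It lies on X, whose level was 0.554, and its surroundings were at 0.529. The oligopeptide carrier Slc15a2 (chr16:36750161-36785158) had 8 fragments, 0 to 3 per library, for a level of 0.356 (0.154 to 0.701), although its surroundings were at the autosomal mean (1.03). Its longest empty stretch was 21301 bases. The creatine carrier Slc16a12 (0.508, 0.325 to 0.756) likewise lay in surroundings at 1.23. By contrast the lactate carrier Slc5a12 (0.437, 0.239 to 0.733), the choline carrier Slc5a7 (0.467, 0.202 to 0.921) and the sulfate carrier Slc13a1 (0.503) lay in surroundings at 0.529 to 0.584, so that gene and neighbourhood were low together.

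Slc13a1 had 7 fragments of 1 library over a single base among its 24, which makes its interval too narrow. Slc7a13 (0.437, 0.176 to 0.901), Slc40a1 (0.455) and Slc17a3 (0.494, 0.213 to 0.974) completed the 10 lowest with 6 to 8 fragments each. Leaving out 1 library was enough to end the call for 9 of the 14 libraries at Slc17a3, 8 at Slc40a1 and 2 at Slc7a13. Among genes with fewer than 10 expected fragments, Slc16a11 (1 fragment, 0.230) and Slc16a13 (2 fragments, 0.325) were as low, and their intervals reach past 1.

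To ask where along the gene the mark lay, 136 autosomal members of 10 kb or more with a single RefSeq promoter window within 500 bases of the gene's end were aligned at their start. The level was lowest just upstream of the start, at 0.986 (0.812 to 1.19) from 2 to 0.5 kb before it, and highest inside the gene, at 1.47 (1.37 to 1.57) from 2 to 10 kb after it. From 10 to 2 kb upstream it was 1.22 (1.13 to 1.31). Within 0.5 kb of the start members were at 1.44 (1.18 to 1.73, 110 fragments), where the 6852 genes chosen in the same way were at 1.12 (1.08 to 1.15). The members' interval there lay wholly above that of all genes. From 0.5 to 2 kb downstream members were at 1.29 (1.09 to 1.52) and all genes at 1.09, and from 2 to 10 kb downstream all genes were at 1.33 (1.32 to 1.35), wholly under the members' interval. Upstream the intervals of members and all genes overlapped.

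In 12 of the 13 libraries with 20000 or more fragments the members had more fragments 2 to 10 kb downstream than 2 to 10 kb upstream. The ratio ran from 0.981 in library 5-3 to 1.59, with a median of 1.21. Across the whole gene cut into 3 equal parts members were at 1.25 in the first, 1.17 in the middle and 1.26 in the last, and at 1.24 in the 10 kb past the end. No steady slope along the gene was seen.

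**Figure D5:**
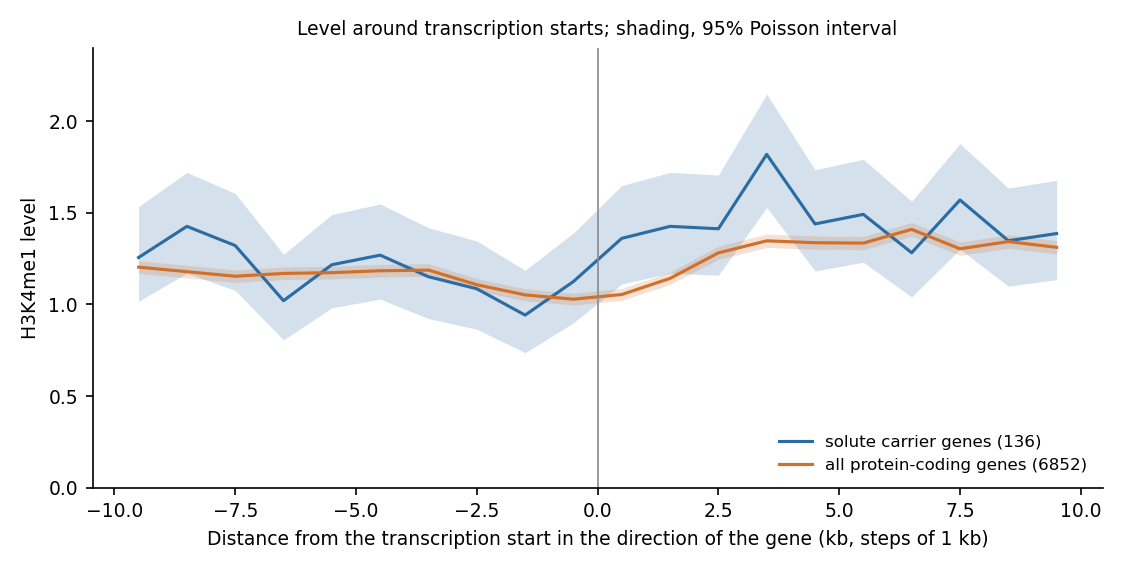
H3K4me1 level in steps of 1 kb against distance from the transcription start in the direction of the gene (x axis, kb), for 136 solute carrier genes (blue) and 6852 protein-coding genes (orange), shading showing the 95% Poisson interval. Both curves dip before the start and rise after it, members to 1.47 and all genes to 1.33 over 2 to 10 kb downstream.

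The downstream level differed with the number of CG in the promoter window. The 44 aligned members with over 20 stood at 1.66 (1.48 to 1.85) from 2 to 10 kb downstream and 1.16 (1.01 to 1.32) upstream. The 57 with 6 to 20 stood at 1.55 (1.40 to 1.71) and 1.31 (1.17 to 1.46), and the 35 with 0 to 5 at 1.10 (0.942 to 1.28) and 1.14 (0.983 to 1.32). All genes stood at 1.44 downstream and 1.25 upstream for over 20 CG, 1.35 and 1.18 for 6 to 20, and 1.08 (1.05 to 1.10) and 0.972 (0.947 to 0.996) for 0 to 5, so that over all genes the downstream level was higher in each class. By the level of the whole gene, the 52 members with 0 to 5 CG had a median of 1.14 with 28.8% above 1, where all 4915 such genes had 0.894 and 14.5%. The 66 members with 21 or more had 1.41 and 39.4%, beside 1.31 and 36.0% over all such genes. By these whole-gene medians members exceeded other genes by most in the class poor in CG, but gene length was not matched. From 2 to 10 kb downstream in the aligned genes the order was the other way. There members and all genes were at 1.10 and 1.08 with 0 to 5 CG, and at 1.66 and 1.44 with over 20. Across the 198 autosomal members with 1 window, Spearman's rho of level and CG count was 0.189, and 0.271 over 13797 genes.

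Fragments in the members had a median length of 319 bases against 321 in all protein-coding genes, and 9.28% against 8.60% were under 150 bases. As a description of the mark at genes that define the cells, the 8 oocyte and zygote genes listed had a median level of 2.19, with 5 above 1 and 0 below, and the 7 cumulus and granulosa genes a median of 0.734, ranging from 0.257 to 2.63, with 2 above and 2 below. Over all protein-coding genes the shares were 28.4% above and 8.17% below. A histone mark does not test the cell type, and the part of other cells in these levels was not tested.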

How the data were processed

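H3K4me1 was measured by CUT&Tag in single zygotes. Per the labels and the file itself, the authors deposited 1 table with a fragment per line, its position, its library and a count that was 1 in all lines. The build is mm10, per the submitters' processing notes. Not given in the sources used here are the aligner, duplicate removal, quality filters, treatment of reads with several matches and any Tn5 shift.

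Fragments were assigned to windows by their midpoint, in Python 3.11.15 with numpy 2.4.6, pandas 2.3.3 and scipy 1.17.1 (figures: matplotlib 3.10.9). Libraries with 5000 or more fragments were pooled, windows were RefSeq genes of GRCm38.p6 with 2.5 kb each side, and levels were divided by the autosomal mean per base. The 256 protein-coding genes of Y were left out. Summed levels count each base once. Because both batches form 1 pool, exact 95% Poisson intervals of the counts replace tests. Counts ranged from 7106 to 197312 fragments per library, which sets the precision of single genes. Levels near a start used the RefSeq promoter windows, which matched 251 members, 202 of them with 1 window, in place of the zones around start and end that had been planned, since strand is known from those windows only. Code was tested on simulated data.

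The members, role lists and markers were chosen with earlier results of these data known. Genes named with values were the 10 highest and 10 lowest with 10 or more expected fragments, the extreme members of the 4 highest and 4 lowest families, the carriers of eggs and early embryos, and the 5 highest 10 kb bins. A few genes that this rule names are not reported here. Other members named as examples of a family or list were chosen after their values were seen. Alternatives tried were other window widths, library cut-offs, equal weights, single libraries left out, each set of libraries alone, other scalings, other ways of placing fragments, a 99% interval, and leaving out high bins or repeat lines. Alternatives chosen after seeing the data left out empty stretches of 50 kb or more, the 4 genes that are not carriers, X genes, or bases within 2.5 kb of another protein-coding gene.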

Additional observations from a re-analysis of the deposited data

How the results depend on the processing

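Most values moved little. Leaving out 1 library at a time gave 120 to 137 members above 1, 15 to 24 below, a median of 1.31 to 1.38, a summed level of 1.26 to 1.28, 9 or 10 families above the all-gene level and 3 or 4 below. Of all protein-coding genes 26.1% to 28.3% were then above 1 and 7.54% to 8.15% below. In the pool and without any 1 library, 93 members were above each time and 11 were below each time. The same counts over all genes were not computed. With the libraries named 4 only, which hold fewer fragments, 62 members (19.1%) were above and 7 (2.15%) below, beside 12.9% and 2.61% of all genes. The members' median there was 1.29, and 6 families were above and 0 below. With the summed level of all genes set to 1 the median over all genes moved from 1.19 to 1.04, 39 members were below, the members' median was 1.19 and their summed level 1.10. With the median of all genes set to 1, 47 were below, the median was 1.15 and the summed level 1.06. A 99% interval left 101 above and 10 below (20.4% and 5.25% of all genes). The 22 carriers of eggs and early embryos held 8 to 13 above and the Slc16 members 1 to 3 when 1 library was left out. Weighting libraries equally gave a median of 1.29.

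Among called values, those that turned to the other side were the Slc24 family (0.983) and Slc2a8 (0.708) with the libraries named 4 only, and Slc26a6 (1.69) with empty stretches of 50 kb or more left out, which by construction removes its 54604 empty bases. Values with intervals that include 1 also crossed it when 1 library was left out: Slc4a2 went as low as 0.652, Slc39a6 0.786, Slc7a6 0.879, Slc16 0.978 and Slc26 0.982. For the other changes the cause was not tested. Of the values for all members and the family counts, 166 stayed near the main value and 13, all given above, moved. Interval counts were not computed for equal weights or for fragment ends, and summed levels were not computed with bases near other genes left out. No paired analysis was possible because the table pools both batches and no label ties a library to a batch number. Depth limits single genes: at the median of 19.7 expected fragments, 178 members could not be placed on either side of 1.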
